A study of Mus musculus with 10 samples.

Results

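The troponins and tropomyosins are the proteins of the thin filament that make contraction depend on calcium. Transcripts of 9 of their genes were followed here in mouse heart: troponin C (Tnnc1), troponin I (Tnni3 and Tnni1), troponin T (Tnnt2 and Tnnt1) and tropomyosin (Tpm1, Tpm2, Tpm3 and Tpm4). The members are all probe sets whose platform annotation gives 1 of these symbols alone, which are 21 of 45101 probe sets on the array. A probe set is a group of short probes read as 1 value. There is 1 each for Tnnc1, Tnni3, Tnni1, Tnnt1 and Tpm4, and there are 3 for Tnnt2, 4 for Tpm1, 4 for Tpm2 and 5 for Tpm3. The hearts came from male SV129 mice of 32 weeks that carried the PKCz -/- genotype (KO, lacking the atypical protein kinase C isoform zeta) or were wild-type littermates (WT). Osmotic minipumps under the skin delivered PBS or angiotensin II (AngII), a pressor hormone under which the heart grows. The AngII dose was 432 µg per kg each day over 14 days. The source label of the PBS animals calls them non-treated, whereas the titles name PBS. The groups were KO AngII (n = 2), KO PBS (n = 3), WT AngII (n = 3) and WT PBS (n = 2), and the number after a group name is that of the array's title. The labels do not say whether the mice lacked the kinase in every tissue or whether arrays of a group came from separate animals, so the p-values reflect no more than the spread among these arrays, part of which may be technical. Values are RMA expression on a log2 scale, on which a difference of 1 is a factor of 2, and the measured quantity is RNA of heart tissue.

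In heart muscle, calcium binds troponin C, which shifts troponin I off actin and lets tropomyosin, anchored by troponin T, move away from the sites that myosin uses. The heart makes fetal and adult forms of these proteins. The embryonic heart uses the slow skeletal troponin I of Tnni1, which is replaced around birth by the cardiac troponin I of Tnni3, and Tnnt2 changes by exon choice rather than by a switch of gene. Tpm1 gives the main striated tropomyosin of the mouse heart, and Tpm2, Tpm3 and Tpm4 are known mainly from slow skeletal muscle, smooth muscle and the cytoskeleton.

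The arrays carried 3 features that touch the results below. Bacterial polyadenylated RNAs added as spike-in controls averaged 6.90 and 7.01 on the KO AngII arrays and 7.08 on KO PBS 4, against 12.86 to 13.33 on the other 7 arrays (mean log2 of 24 probe sets), and beta-actin read higher at its 3' than at its 5' end by 0.74 to 0.83 on those 3 arrays and by 0.92 to 1.70 on the 7. Every comparison with KO AngII therefore crosses this spike-in batch, and its blocked values lean on KO PBS 4 alone as the link. WT AngII 2 stood apart in several marker lists. The mean of 8 fibroblast markers was 12.57 there, against 9.53 to 10.83 on the other arrays. That of 5 macrophage markers was 9.83, against 8.34 to 8.95. The mean of 8 smooth muscle markers was 10.09, against 8.93 to 9.63, and that of 6 atrial markers 8.46, against 7.65 to 8.14. The targeted gene Prkcz stood at 5.81 ± 0.07 in KO and 6.35 ± 0.09 in WT (SD, n = 5 each), with no overlap (exact permutation test, two-sided, p = 0.01, the smallest possible with 100 arrangements; limma, adjusted p = 0.126). A probe set outside the deleted part would check nothing, and where this one lies relative to it was not stated. The mean of 10 cardiomyocyte markers, from 14.05 to 14.14 on all arrays, marks the samples as heart muscle, and the mean of 10 skeletal muscle markers stayed between 7.14 and 7.29.

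Stretches of DNA just before the start of 6 member genes are shown to let the fetal, adult and slow skeletal isoforms be compared at the sequence level. They are the last 100 bases before the annotated start, 5' to 3' on the strand of the gene, from RefSeq (GRCm38.p6), and lie at chr14:31208212-31208311 (plus strand) for Tnnc1, chr7:4522529-4522628 (minus strand) for Tnni3, chr1:135799321-135799420 (plus strand) for Tnni1, chr1:135836234-135836333 (plus strand) for Tnnt2, chr7:4515976-4516075 (minus strand) for Tnnt1 and chr9:67049214-67049313 (minus strand) for Tpm1. Where a gene has several windows the first is printed. Capitals mark every match to the MCAT element (CATTCC), the TATA box (TATAAA), the GATA site (AGATAA) and the E-box (CANNTG), each searched on both strands.
Tnnc1: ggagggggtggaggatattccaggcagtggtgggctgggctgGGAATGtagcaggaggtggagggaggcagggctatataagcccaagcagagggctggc
Tnni3: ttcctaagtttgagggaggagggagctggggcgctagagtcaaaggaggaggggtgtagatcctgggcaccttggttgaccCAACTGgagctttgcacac
Tnni1: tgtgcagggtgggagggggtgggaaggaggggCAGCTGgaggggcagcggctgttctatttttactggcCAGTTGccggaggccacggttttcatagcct
Tnnt2: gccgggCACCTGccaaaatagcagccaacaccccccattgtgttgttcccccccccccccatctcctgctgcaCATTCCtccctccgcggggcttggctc
Tnnt1: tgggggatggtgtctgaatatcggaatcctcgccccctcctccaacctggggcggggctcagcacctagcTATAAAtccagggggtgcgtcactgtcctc
Tpm1: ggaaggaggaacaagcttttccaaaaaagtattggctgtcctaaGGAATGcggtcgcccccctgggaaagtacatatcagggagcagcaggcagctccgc
The MCAT letters, which TEAD factors bind in muscle genes, lay at -58 to -53 in Tnnc1, at -27 to -22 in Tnnt2 and at -56 to -51 in Tpm1. All 3 are genes of main cardiac isoforms, but Tnni3, which also gives one, had no match, nor had the second Tnnt2 window. Over 250 bases before the start the MCAT letters were found in 3 of 12 windows of the 9 genes, against 12.6% of 32851 windows of all genes. Within the printed bases the fetal Tnni1 had E-boxes that begin at -68 and -31, and adult Tnni3 had 1 that begins at -19. Tnnt1 held the only TATAAA among the 12 windows, at -30, against 12.4% of all windows. The GATA letters were in 2 of the 12 (9.99% of all), at -166 in Tnnt2 and at -32 in Tpm3. E-boxes were in 11 of the 12 (66.2% of all), with none in Tpm4, and the MEF2 and CArG motifs were in 0 of the 12 (2.92% and 1.47% of all). A match of letters is a description and not a measured binding site.

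None of the 21 troponin and tropomyosin probe sets passed the test in any of the 7 comparisons (limma over 45037 probe sets, adjusted p under 0.05). Their medians also lay close to 0. For AngII against PBS in KO the median was 0.08, and 0.02 over all probe sets. For the same effect in WT it was -0.00, and 0.01 over all. For KO against WT it was -0.01 under AngII (0.03 over all) and -0.09 under PBS (0.01 over all), with 17 of 21 below 0 under PBS. In 4 comparisons the array as a whole gave no calls either: AngII against PBS in KO called 0% of probe sets, in WT 0%, averaged over genotype 0%, and the interaction, which is the AngII effect in KO minus that in WT, 0%. KO against WT called 0.0111% under AngII, 0.0133% under PBS and 0.0444% averaged over treatment. At an unadjusted p under 0.05, none of the 21 counted under AngII in KO (4.57% of all probe sets), AngII in WT (5.23%), the interaction (1.64%), KO against WT under AngII (6.51%) or KO against WT under PBS (6.29%). AngII against PBS averaged over genotype counted 2 of 21 (9.62% of all), and KO against WT averaged over treatment counted 1 of 21 (12.4% of all), so neither share was above its background. The smallest adjusted p of any member was 0.402, for Tpm3. In tissue samples such as these, fewer cells of a type and less RNA per cell cannot be told apart.

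**Figure D1:**
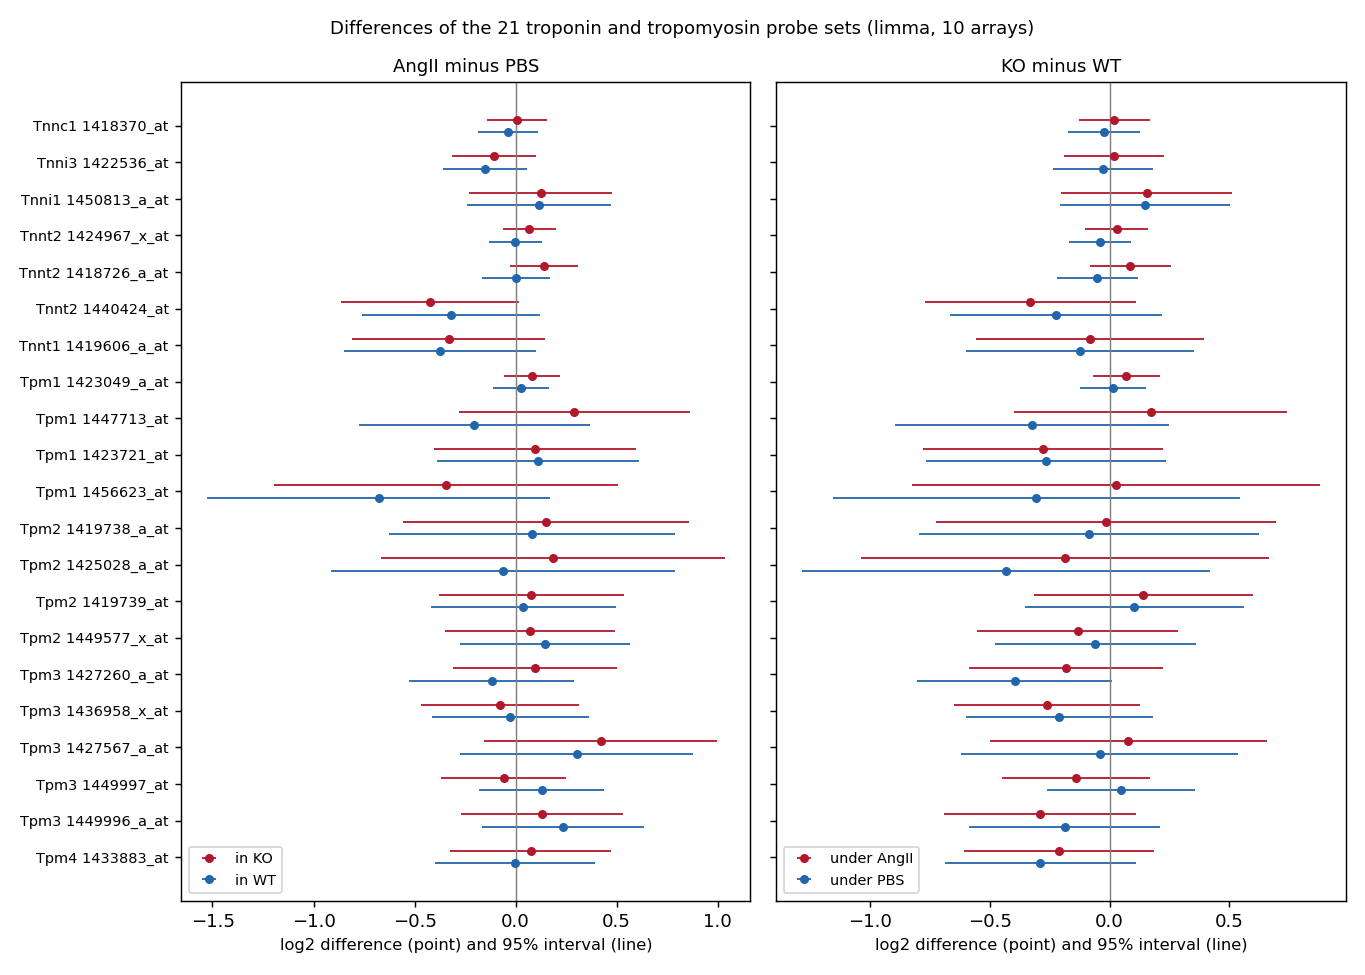
Log2 difference (point) with its 95% interval (line) for each of the 21 probe sets, AngII minus PBS on the left (KO red, WT blue) and KO minus WT on the right (under AngII red, under PBS blue), on the horizontal axis. The intervals are short for the probe sets of the main cardiac isoforms and wide for Tpm2 and the dimmer Tpm1 probe sets, and every one of them spans 0.

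Troponin C, the calcium sensor shared by heart and slow muscle, varied least among the single-probe-set genes. Tnnc1 read 14.05 and 14.01 in KO AngII, 14.05, 14.07 and 13.95 in KO PBS, 13.97, 14.04 and 14.01 in WT AngII, and 14.08 and 14.01 in WT PBS. All 4 groups overlapped, and the whole range was 0.13 log2. AngII minus PBS averaged -0.02 ± 0.05 (SE, 95% interval -0.12 to 0.09) and KO minus WT -0.00 ± 0.05 (-0.11 to 0.10). Tnnc1 belongs to 5 probe sets of the main cardiac isoforms that lay between 13.77 and 14.36, near the highest value of any probe set on any array, 14.68. Differences can be compressed at this end of the scale, so a narrow interval there bounds the array signal rather than the RNA itself.

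Adult troponin I, the inhibitory subunit of the heart, was slightly dimmer on the AngII arrays without passing the test. Tnni3 read 14.03 and 13.90 in KO AngII, 14.12, 14.12 and 13.97 in KO PBS, 13.77, 14.02 and 14.05 in WT AngII, and 14.07 and 14.13 in WT PBS. Within WT both PBS arrays lay above all AngII arrays, while in KO the groups overlapped through KO PBS 4. AngII minus PBS was -0.11 ± 0.10 in KO and -0.15 ± 0.10 in WT (limma, adjusted p = 0.901 and 0.93), and -0.13 ± 0.07 averaged (95% interval -0.28 to 0.02). With the spike-in batch as a block the KO value was -0.00, and without WT AngII 2 the WT value was -0.06. KO minus WT averaged -0.00 ± 0.07 (-0.15 to 0.14).

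Tnni1, the fetal and slow skeletal troponin I, stood near the middle of the array scale, at percentile 53.4 of all probe sets. It read 6.40 and 6.57 in KO AngII, 6.42, 6.34 and 6.33 in KO PBS, 6.34, 6.13 and 6.53 in WT AngII, and 6.41 and 6.02 in WT PBS. The highest array was KO AngII 4 and the lowest WT PBS 5, and all 4 groups overlapped. AngII minus PBS was 0.12 ± 0.16 in both genotypes (limma, adjusted p = 0.918 in KO and 0.961 in WT), and 0.12 ± 0.12 averaged, with a 95% interval of -0.13 to 0.37. As factors of AngII over PBS the interval runs from 0.913 to 1.29. It gives the differences compatible with these arrays, and not the smallest difference that the test could detect. Of the cell type markers, only those of skeletal muscle went with Tnni1 (r = 0.69, rho = 0.66, with the other lists from -0.30 to 0.22), and their part in its values was not tested. The mean of that list spanned only 7.14 to 7.29, and its genes ranged in mean level from 5.11 (Pvalb) to 13.63 (Ckm). Its single genes were not compared with Tnni1. KO minus WT averaged 0.15 ± 0.12 (95% interval -0.10 to 0.40).

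**Figure D2:**
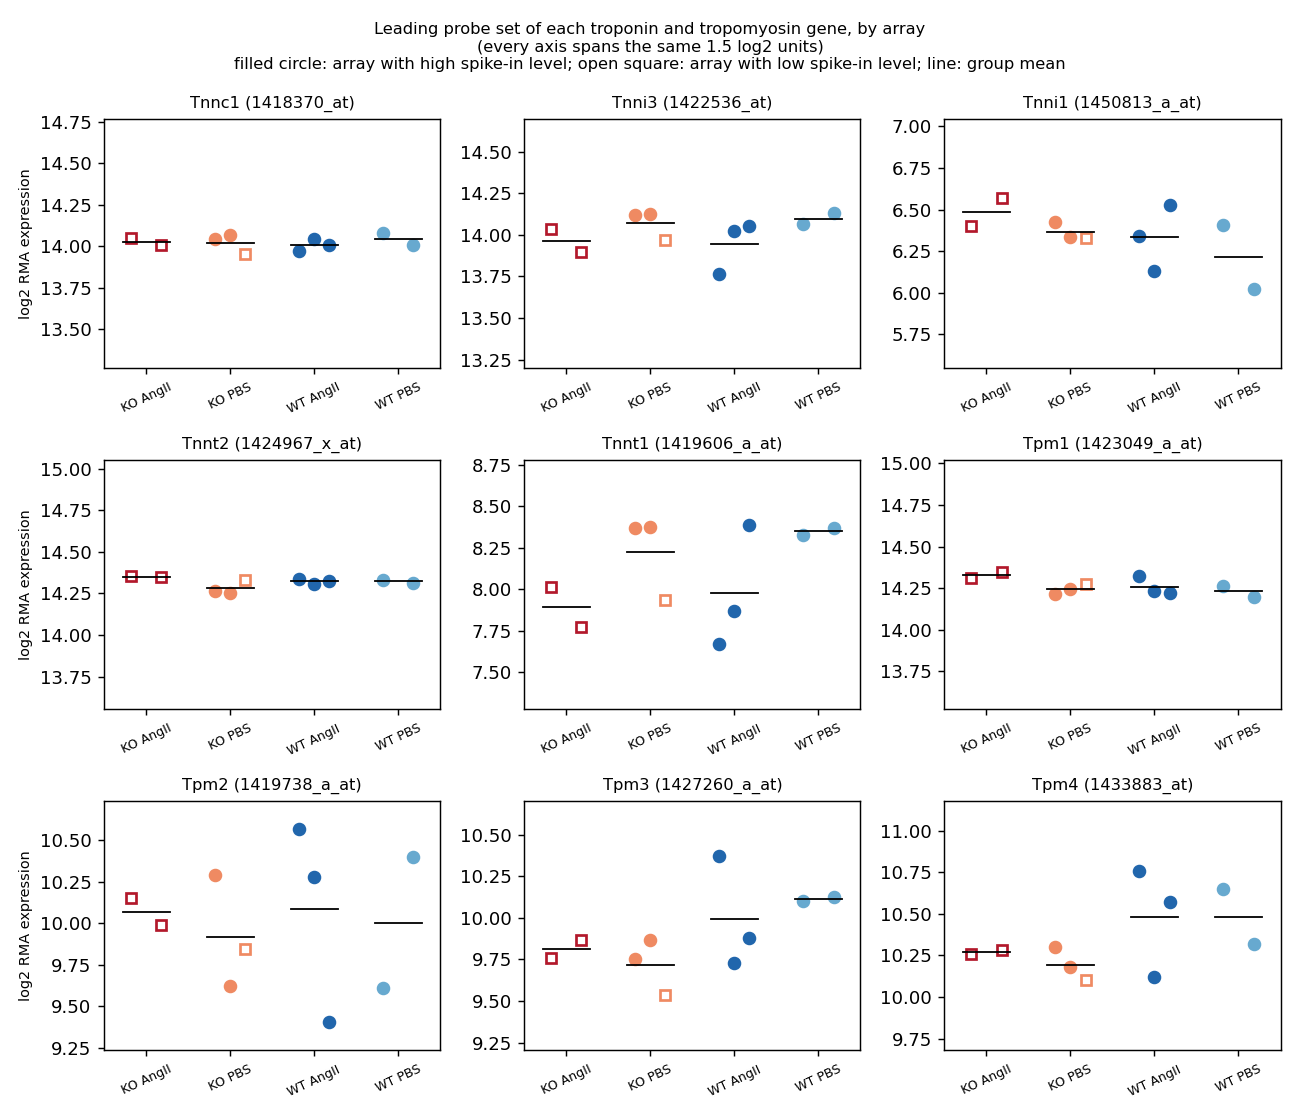
Log2 RMA expression (vertical axis, 1.5 log2 units in each panel) of the leading probe set of each gene, which is the one with the highest mean, by group from KO AngII to WT PBS. Points are arrays (open squares for low spike-in level, filled circles for high) and lines are group means; Tnnc1, Tnnt2 and Tpm1 are nearly flat, and Tpm2 spreads by over 1 log2 unit within WT AngII.

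Cardiac troponin T, which ties the complex to tropomyosin, gave the flattest signal of the set on its brightest probe set. Tnnt2 probe set 1424967_x_at read 14.36 and 14.35 in KO AngII, 14.27, 14.25 and 14.33 in KO PBS, 14.34, 14.31 and 14.33 in WT AngII, and 14.33 and 14.31 in WT PBS. Its whole range was 0.10 log2. AngII minus PBS averaged 0.03 ± 0.04 (95% interval -0.06 to 0.13). The x in such a name means that the probes can also match other genes. The second Tnnt2 probe set, 1418726_a_at, read 14.25 and 14.25 in KO AngII, 14.07, 14.04 and 14.22 in KO PBS, 14.06, 14.23 and 14.19 in WT AngII, and 14.14 and 14.18 in WT PBS. Both KO AngII arrays lay above all others, by a small margin, and KO PBS 4, the low-spike array, was the highest of its group. AngII minus PBS in KO was 0.14 ± 0.08 (limma, adjusted p = 0.892), and 0.03 with the batch as a block.

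The third Tnnt2 probe set, 1440424_at, sat much lower on the scale and varied in another way. It read 7.87 and 7.49 in KO AngII, 7.97, 8.41 and 7.93 in KO PBS, 7.95, 7.88 and 8.20 in WT AngII, and 8.15 and 8.51 in WT PBS. Both KO AngII arrays lay below all 3 KO PBS arrays, while in WT the groups overlapped. AngII minus PBS averaged -0.37 ± 0.14 (limma, unadjusted p = 0.0237, adjusted p = 0.494), and -0.29 with the batch as a block. Across the 10 arrays it ran against the brightest Tnnt2 probe set (r = -0.50), whereas the 2 bright ones ran together (r = 0.67). The exons of Tnnt2 that each probe set reads were not stated, so these values cannot be assigned to fetal or adult splice forms.

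Tnnt1, the slow skeletal troponin T, was the other member below an unadjusted 0.05 for AngII. It read 8.02 and 7.77 in KO AngII, 8.37, 8.38 and 7.94 in KO PBS, 7.67, 7.87 and 8.39 in WT AngII, and 8.33 and 8.37 in WT PBS. The values split into a high and a low set that cut across the groups: 5 arrays lay between 8.33 and 8.39, among them WT AngII 4, and the other 5 between 7.67 and 8.02, among them KO PBS 4. AngII minus PBS was -0.33 ± 0.22 in KO and -0.37 ± 0.22 in WT, and -0.35 ± 0.15 averaged (limma, unadjusted p = 0.0418, adjusted p = 0.511). With the batch as a block the KO value was -0.04, and without WT AngII 2 the WT value was -0.22. KO minus WT averaged -0.10 ± 0.15 (95% interval -0.44 to 0.24), and 0.19 with the block. The 8 fibroblast markers ran against Tnnt1 over the arrays (r = -0.71, rho = -0.53). Their mean was 10.52 to 10.83 in KO AngII, 9.69 to 9.79 in KO PBS, 10.02 to 12.57 in WT AngII and 9.53 to 10.02 in WT PBS. Of these markers 7 of 8 were higher under AngII in KO (median 0.89) and 8 of 8 in WT (median 1.28), with 0 past the test, and their part in the Tnnt1 values was not tested. WT AngII 2 was the highest array for the fibroblast mean and the lowest for Tnnt1. On WT AngII 3 and 4 the fibroblast mean was 10.02 and 10.18. Neither the correlation with Tnnt1 nor the WT median was computed without WT AngII 2.

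Tnnt1 and Tnni3 are direct neighbours on chromosome 7, with 0 genes between them, and their leading probe sets varied together over the 10 arrays (r = 0.89, and 0.88 over 9 arrays without WT AngII 2). Tnni1 and Tnnt2 also lie close together, on chromosome 1 with 1 gene between, and their leading probe sets correlated at r = 0.24. That Tnnt2 probe set spanned only 0.10 log2 near the top of the scale, so a weak correlation with it says little about a shared pattern. With Tnni1, Tnnt2 probe sets 1418726_a_at and 1440424_at correlated at r = -0.00 and -0.50. These correlations share the arrays, their scaling and the batch, and are given as descriptions. The promoter windows of Tnni3 and Tnnt1 printed above share none of the marked motifs within the 100 bases shown.

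Tpm1, which encodes the main tropomyosin of heart muscle, was flat on its leading probe set. Probe set 1423049_a_at read 14.31 and 14.35 in KO AngII, 14.22, 14.24 and 14.27 in KO PBS, 14.32, 14.23 and 14.22 in WT AngII, and 14.26 and 14.20 in WT PBS. KO AngII lay above all PBS arrays by a small margin and overlapped WT AngII through WT AngII 2. AngII minus PBS averaged 0.06 ± 0.05 (95% interval -0.04 to 0.15), and KO minus WT 0.04 ± 0.05 (-0.06 to 0.14). The a in the name means that the probes match several transcripts of the gene, and Tpm1 makes striated, smooth muscle and cytoskeletal forms by exon choice.

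The other 3 Tpm1 probe sets correlated weakly with the leading one, which spanned only 0.15 log2. Over 10 arrays r was 0.21 for 1423721_at, -0.10 for 1447713_at and -0.29 for 1456623_at. Probe set 1423721_at read 8.06 and 8.07 in KO AngII, 7.99, 7.91 and 7.99 in KO PBS, 8.86, 7.99 and 8.17 in WT AngII, and 8.04 and 8.42 in WT PBS, with 2 high arrays, WT AngII 2 and WT PBS 5. Probe set 1447713_at read 10.69 and 11.06 in KO AngII, 10.35, 10.36 and 11.04 in KO PBS, 10.22, 10.81 and 11.07 in WT AngII, and 10.76 and 11.05 in WT PBS. Probe set 1456623_at read 7.09 and 6.81 in KO AngII, 7.69, 7.61 and 6.58 in KO PBS, 7.52, 6.27 and 6.97 in WT AngII, and 7.21 and 7.98 in WT PBS. These last 2 had wide overlaps within and between groups. For 1456623_at AngII minus PBS in WT was -0.68 ± 0.39 (95% interval -1.53 to 0.17), and -0.98 ± 0.36 without WT AngII 2 (limma, adjusted p = 0.413). Its AngII difference in KO was -0.34 ± 0.39, and 0.37 with the batch as a block. The interaction was 0.33 ± 0.55, and 1.05 ± 0.54 with the block. For 1447713_at AngII minus PBS was 0.29 ± 0.26 in KO and -0.20 ± 0.26 in WT, an interaction of 0.49 ± 0.37 (limma, adjusted p = 1) that was 0.04 with the batch as a block.

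Within KO PBS, the only group that holds both spike-in levels, 2 of these Tpm1 probe sets separated the arrays. KO PBS 4 minus the mean of KO PBS 2 and 3 was -1.07 for 1456623_at, larger in size than for 99.4% of all probe sets. It was 0.68 for 1447713_at, past 97.4%. Tpm3 probe set 1427567_a_at differed by 0.57, past 95.6%, and Tnnt1 by -0.44, past 91.1%. The probe sets of the main cardiac isoforms moved less, from -0.16 for Tnni3 to 0.16 for the second Tnnt2 probe set. One array stands on the low side here, so the part of the batch in these differences was not tested.

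**Figure D3:**
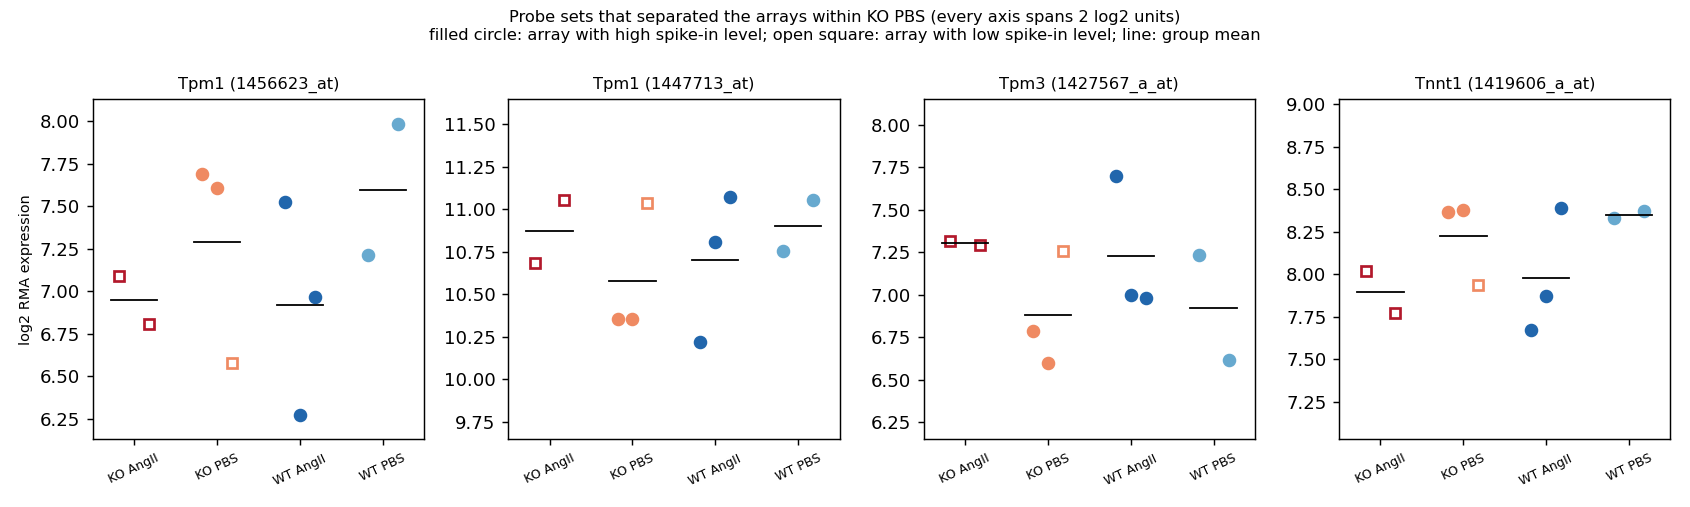
Log2 RMA expression (vertical axis, 2 log2 units in each panel) of the 4 members that differed most between arrays of KO PBS with low and high spike-in level, by group from KO AngII to WT PBS. Open squares are low arrays, filled circles high arrays and lines group means; in KO PBS the open square lies apart from both circles in every panel, and WT arrays, all high, spread as widely.

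Tpm2 encodes beta-tropomyosin, a form of slow skeletal and smooth muscle, and it varied more between arrays of a group than between groups. Its leading probe set 1419738_a_at read 10.15 and 9.99 in KO AngII, 10.29, 9.62 and 9.84 in KO PBS, 10.57, 10.28 and 9.41 in WT AngII, and 9.61 and 10.40 in WT PBS. WT AngII alone held both the highest and the lowest array. AngII minus PBS averaged 0.12 ± 0.23 (95% interval -0.39 to 0.62) and KO minus WT -0.05 ± 0.23 (-0.55 to 0.45). The second probe set, 1425028_a_at, read 7.94 and 7.90 in KO AngII, 8.14, 7.44 and 7.64 in KO PBS, 8.76, 8.19 and 7.38 in WT AngII, and 7.59 and 8.75 in WT PBS. It ranked the arrays almost as the first did (r = 0.94, rho = 0.98). The remaining Tpm2 probe sets, 1419739_at and 1449577_x_at, were dim and ranged from 5.81 to 6.66 and from 4.42 to 5.31.

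The spread of Tpm2 went with that of some smooth muscle transcripts. Of 12263 genes with an SD of at least 0.15, those most like the leading Tpm2 probe set were Tagln (r = 0.92, rho = 0.83), which encodes the smooth muscle protein transgelin, Myh11 (r = 0.90, rho = 0.83), the smooth muscle myosin heavy chain, and Itih4 (r = 0.86, rho = 0.92), which is no smooth muscle marker. Tpm2 was added to this description after its values were seen. Without WT AngII 2 the correlations were 0.90 with Tagln and 0.88 with Myh11. Of the other smooth muscle markers, Mylk (r = 0.76), Cnn1 (0.70) and Lmod1 (0.65) went with Tpm2 less closely, and Smtn (0.22), Des (0.21) and Acta2 (-0.05), the smooth muscle actin, hardly or not at all. The mean of 8 smooth muscle markers, which include Tagln and Myh11, was 9.31 to 9.38 in KO AngII, 8.93 to 9.29 in KO PBS, 9.25 to 10.09 in WT AngII and 9.17 to 9.63 in WT PBS. It correlated with the 2 brighter Tpm2 probe sets at r = 0.77 and 0.87, and with Tpm1 probe set 1423721_at at r = 0.93 (rho = 0.64). Without WT AngII 2 the last value was 0.78 (rho = 0.50). That Tpm1 probe set went as closely with the macrophage markers (r = 0.95, rho = 0.75) and also with fibroblast (r = 0.83) and atrial markers (r = 0.81), so its pattern was not particular to smooth muscle. These are descriptions over 10 arrays that share scaling, batch and the same tissue pieces, and the part of smooth muscle content in the Tpm2 values was not tested.

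**Figure D4:**
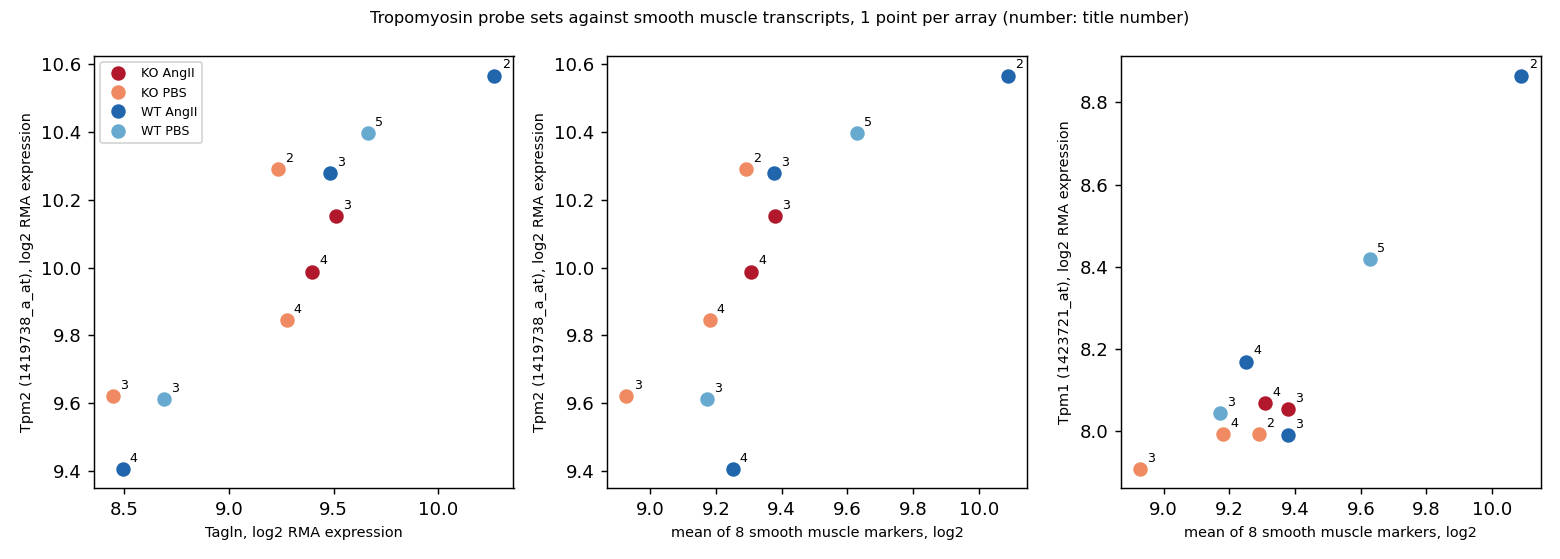
Each point is 1 of the 10 arrays with its title number, colored by group. The vertical axes give log2 RMA expression of Tpm2 (left and middle) and of Tpm1 probe set 1423721_at (right), and the horizontal axes give Tagln (left) or the mean of 8 smooth muscle markers (middle and right); Tpm2 follows Tagln across arrays of all groups, and the Tpm1 relation leans on WT AngII 2 and WT PBS 5.

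Tpm3 and Tpm4, which give slow skeletal and cytoskeletal tropomyosins, averaged lower on KO than on WT arrays without passing the test. Tpm3 probe set 1427260_a_at read 9.76 and 9.87 in KO AngII, 9.75, 9.86 and 9.53 in KO PBS, 10.37, 9.73 and 9.88 in WT AngII, and 10.10 and 10.13 in WT PBS. Under PBS all KO arrays lay below both WT arrays, while under AngII the genotypes overlapped. KO minus WT was -0.18 ± 0.19 under AngII and -0.40 ± 0.19 under PBS (limma, adjusted p = 0.794 and 0.799), and -0.29 ± 0.13 averaged (unadjusted p = 0.0487, adjusted p = 0.402). With the batch as a block the averaged value was -0.11, and the PBS value, which then rests on the high-spike arrays alone, was -0.30 ± 0.20. Without WT AngII 2 the difference under AngII was 0.01.

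Tpm4 read 10.26 and 10.29 in KO AngII, 10.30, 10.18 and 10.10 in KO PBS, 10.76, 10.12 and 10.57 in WT AngII, and 10.65 and 10.32 in WT PBS. Under PBS all KO arrays again lay below both WT arrays, by a small margin for KO PBS 2, and under AngII WT AngII 3 lay below both KO arrays. KO minus WT averaged -0.25 ± 0.13 (limma, adjusted p = 0.435, 95% interval -0.53 to 0.03), and -0.16 with the block. AngII minus PBS averaged 0.04 ± 0.13. Tpm3 and Tpm4 varied together (r = 0.81 over 10 arrays, 0.67 over 9 without WT AngII 2). The 5 macrophage markers were also lower in KO, 5 of 5 with a median of -0.38 averaged over treatment, and 0 of them passed the test. Their mean was 8.58 to 8.68 in KO AngII, 8.34 to 8.50 in KO PBS, 8.73 to 9.83 in WT AngII and 8.56 to 8.95 in WT PBS. It correlated with Tpm3 at r = 0.82 (rho = 0.71) and with Tpm4 at r = 0.66 (rho = 0.56). WT AngII 2 was the highest array for this mean and for both genes, and these correlations were not computed without it. The endothelial markers correlated with Tpm3 at r = 0.76 and with Tpm4 at r = 0.55. Their part in the Tpm3 and Tpm4 values was not tested.

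The other Tpm3 probe sets were dimmer, and whether they shared this pattern differed between the fits without and with the spike-in batch as a block. Probe set 1427567_a_at read 7.31 and 7.29 in KO AngII, 6.79, 6.60 and 7.26 in KO PBS, 7.70, 6.997 and 6.98 in WT AngII, and 7.23 and 6.61 in WT PBS. Its AngII minus PBS averaged 0.36 ± 0.19 (limma, adjusted p = 0.55), and 0.17 with the batch as a block. Probe set 1449996_a_at read 6.59 and 6.54 in KO AngII, 6.36, 6.37 and 6.58 in KO PBS, 7.22, 6.56 and 6.79 in WT AngII, and 6.68 and 6.56 in WT PBS, with WT AngII 2 the highest. KO minus WT averaged -0.24 ± 0.13 for 1436958_x_at, -0.24 ± 0.13 for 1449996_a_at, -0.05 ± 0.10 for 1449997_at and 0.02 ± 0.19 for 1427567_a_at. With the batch as a block these values were -0.09, -0.38, -0.13 and -0.36, so that all 5 Tpm3 probe sets were below 0 and 1427567_a_at turned its sign. WT AngII 2 was the highest array for 9 of the 21 members, against 16.8% of all probe sets, and the lowest for 3, against 23.1%.

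Isoform balance was taken per array as the log2 difference between leading probe sets, and only its change between groups is read, since levels of different probe sets are not comparable. Fetal over adult troponin I (Tnni1 minus Tnni3, centred over all arrays) averaged 0.19 ± 0.21 in KO AngII, -0.04 ± 0.08 in KO PBS, 0.05 ± 0.24 in WT AngII and -0.21 ± 0.32 in WT PBS (SD, n = 2 or 3). The AngII change was 0.23 in KO and 0.27 in WT, and 0.18 in WT without WT AngII 2. In KO the AngII differences with the spike-in batch as a block were 0.16 for Tnni1 and -0.00 for Tnni3. In KO both AngII arrays lay above all PBS arrays, KO AngII 3 by a small margin, and in WT the groups overlapped. Tnni3 lies near the top of the scale, where differences can be compressed. Tnni1 lies near the middle, where without a detection call its signal over background could not be set. Slow skeletal over cardiac troponin T (Tnnt1 minus Tnnt2) averaged -0.25 ± 0.17 in KO AngII, 0.15 ± 0.29 in KO PBS, -0.14 ± 0.37 in WT AngII and 0.23 ± 0.04 in WT PBS, a change of -0.40 in KO and -0.37 in WT. Without WT AngII 2 the WT change was -0.21. In KO the AngII differences with the spike-in batch as a block were -0.04 for Tnnt1 and 0.02 for Tnnt2, so the KO change depended on the batch. This balance rests on a Tnnt2 probe set near the top of the scale, which differed by 0.07 in KO and -0.00 in WT. The dim Tnnt2 probe set 1440424_at differed by -0.42 in KO and -0.32 in WT, against -0.33 and -0.37 for Tnnt1. The size of the Tnnt1 minus Tnnt2 change, and in KO also its direction, therefore depend on which Tnnt2 probe set is used. The tropomyosin balance against Tpm1 differed under AngII by 0.07 in KO and 0.05 in WT for Tpm2, and the WT value was -0.16 without WT AngII 2. Between genotypes it differed by -0.25 under AngII and -0.41 under PBS for Tpm3, and by -0.28 under AngII and -0.30 under PBS for Tpm4. Without WT AngII 2 the AngII values were -0.09 for Tpm3 and -0.17 for Tpm4. These AngII values set low-spike KO against high-spike WT arrays, and values with the batch as a block were fitted per gene. There, KO minus WT under PBS was -0.30 for Tpm3, -0.24 for Tpm4 and -0.00 for Tpm1. The blocked difference under AngII was higher than that under PBS by 0.40 for Tpm3, 0.17 for Tpm4 and 0.03 for Tpm1.

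Genes whose pattern over the 10 arrays was most like that of a member were named for Tpm2 above and for 4 others. For adult troponin I these were Fndc5 (r = 0.98), Chchd7 (0.97) and Ackr3 (0.97), and for fetal troponin I Dnah5 (0.93), Aig1 (0.87) and Batf2 (0.86). For Tpm1 they were Ciao2b (0.94), Sqstm1 (0.93) and Copa (0.93), and for Tpm4 Cybc1 (0.96), Atp1b1 (0.93) and Mcam (0.93). Each is the highest of about 12263 candidates over few arrays, and high values arise easily in such a search. Adult troponin I also ran against the fibroblast markers (r = -0.87, and -0.63 without WT AngII 2), and the part of fibroblast content in its values was not tested.

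Companion genes of the thin filament were read in the same fits, and 0 of the 74 measured passed the test in any comparison. Of the 3 fast skeletal troponins, Tnnt3, the fast troponin T, read 6.59, 5.82 and 5.71 in WT AngII, against 5.39 and 5.39 in WT PBS, with WT AngII 2 the highest. The AngII difference of Tnnt3 was -0.07 ± 0.23 in KO and 0.65 ± 0.23 in WT (limma, adjusted p = 0.968 and 0.93), an interaction of -0.72 ± 0.33 (adjusted p = 1), and the WT value was 0.37 without WT AngII 2. Tnni2, the fast troponin I, differed by -0.07 in KO and 0.05 in WT, and Tnnc2, the fast troponin C, by -0.17 in KO and 0.20 in WT. Of 17 thin filament partners, Acta1, the skeletal alpha-actin that the fetal heart also makes, read 13.69 and 13.76 in KO AngII, 13.20, 13.50 and 13.18 in KO PBS, 13.79, 13.56 and 13.74 in WT AngII, and 13.48 and 13.06 in WT PBS. All AngII arrays lay above all PBS arrays, and AngII minus PBS averaged 0.43 ± 0.09 (limma, unadjusted p = 6.4e-04, adjusted p = 0.483, 0.48 with the block). Tmod4, a pointed-end cap of actin, differed by -0.51 ± 0.14 under AngII averaged over genotype (limma, adjusted p = 0.483). Xirp1, an actin-binding protein of the intercalated disc, differed by -1.19 ± 0.28 under AngII in WT and by -1.21 ± 0.28 between KO and WT under PBS (limma, adjusted p = 0.876 and 0.437), both against the same 2 WT PBS arrays. Its AngII difference in KO was 0.01 ± 0.28, and 0.58 with the block, and the interaction was 1.20 ± 0.39 (limma, adjusted p = 1).

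Among 11 splicing regulators, Rbm20, which controls exon choice in sarcomere transcripts, differed by -0.32 ± 0.11 and Celf1 by -0.27 ± 0.09 under AngII averaged over genotype (limma, adjusted p = 0.487 each), the Celf1 value being -0.06 in KO and -0.48 in WT. Ptbp1 differed by 0.31 ± 0.13 and Celf2 by -0.34 ± 0.11 between KO and WT averaged over treatment (limma, adjusted p = 0.374 and 0.318), and by 0.30 and -0.06 with the block. Of 18 kinases and phosphatases that act on troponin I, troponin T or tropomyosin, Pak3 differed by 0.39 ± 0.12 and Prkar1a, a regulatory subunit of protein kinase A, by 0.39 ± 0.14 under AngII averaged over genotype (limma, adjusted p = 0.483 and 0.49), and by 0.38 and 0.22 with the block. Of 14 transcription factors of sarcomere genes, Tbx20 differed by -0.36 ± 0.11 and Tbx5 by 0.35 ± 0.11 between KO and WT averaged over treatment (limma, adjusted p = 0.3 and 0.318), and by -0.55 and 0.40 with the block. Of 11 thick filament genes, Myl4, the atrial light chain also made by the fetal ventricle, differed by -0.70 ± 0.21 between KO and WT under AngII (limma, adjusted p = 0.734). The Myl4 difference was -0.47 with the block and also -0.47 without WT AngII 2.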

How the data were processed

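The deposited values are log2 expression values per probe set of 1-colour Affymetrix mouse arrays, made by the authors with RMA per the submitters' processing notes, its version being not given in the sources used here. RMA corrects background, equalises array distributions and summarises probes, and it gives no detection call. Per the labels' protocols 6 µg of total RNA was used. No read depth applies, so the number of arrays limits precision. After 64 control probe sets were left out, 45037 entered a limma fit (version 3.58.1 under R 4.3.3; 4 group means, eBayes with trend, median 11.7 degrees of freedom, Benjamini-Hochberg within each of 7 comparisons), and the scripts were tested on simulated data. Symbols came from GEO's platform annotation. All member probe sets are named, a gene is led by its probe set of highest mean, the 3 most alike genes are given for 4 members, and up to 4 companion genes of smallest unadjusted p per list. Members, lists and rules were chosen with earlier results of these data known. Alternatives were array scaling, array weights, variance model, dim probe sets, gene means, spike-in batch, replicate block, fewer arrays in the fit and each array left out.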

Additional observations from a re-analysis of the deposited data

How the results depend on the processing

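The count of called members was 0 in every comparison that a setting allowed, with 1 exception (4 comparisons with only the arrays of the groups compared, 2 with the high-spike arrays, 1 with the low-spike arrays and 7 otherwise). Array weights called 1 of 21 for KO against WT under AngII, Tnnt2 probe set 1440424_at at -0.49 ± 0.14 (limma, adjusted p = 0.0493, against -0.33 and 0.734 unweighted); that fit gave WT AngII 4 a weight of 7.21 and WT AngII 2 one of 0.225 and called 2911 of 45037 probe sets there, against 5 unweighted. Leaving out each array in turn kept it at 0. Title numbers did not pair the arrays: deviations of same-numbered arrays correlated from -0.36 to 0.10 over 10 pairs. The replicate block left 0 members called and turned the sign of 1 difference that was at least its own SE, Tnni1 for AngII averaged over genotype (-0.023 ± 0.13, against 0.12). Averaging all probe sets per gene turned 3: Tnnt2 for AngII in KO (-0.072, against 0.07), Tpm1 for KO against WT under AngII (-0.0033, against 0.07) and Tpm1 for AngII averaged (-0.077, against 0.06). For leading probe sets, 87 of 630 values in settings other than leaving out an array changed sign, these 4 among them, and 55 moved by over 1 SE. Leaving out an array changed the sign of 74 of 630 values and moved 14 by over 1 SE. Of those sign changes, 0 were in differences of at least 1 SE in the main fit. Prkcz kept its sign (-0.50 to -0.60), with an exact p under 0.05 wherever the permutation test was run. Without a detection call, signal over background could not be set for dim members.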
